A study of Mus musculus with 90 samples.

Results

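INT CD8 cells are tumour-infiltrating CD8 T cells sorted as PD-1 intermediate and TIM-3 negative, and they were compared between mice of the Ebi3L genotype and yfp control mice. The 6 libraries were chosen by their labels, 3 Ebi3L and 3 yfp, out of 60 CD8 libraries and 90 libraries in the whole series. Per the series' design text, IL-10, IL-35 or both were knocked out specifically in regulatory T cells (Tregs). Ebi3 encodes a subunit of IL-35, so the Ebi3L label was taken as the IL-35 arm, Il10 as the IL-10 arm and DKO as the double knockout. The yfp genotype carries no named knockout, and the meaning of the final letter in Ebi3L, the Cre line, the tumour, the age and the sex of the mice are not given in the labels. By that text the knockout is in Tregs, while the sequenced cells are CD8 cells; the Ebi3 reads of the CD8 libraries are given with the cytokine chains. Each fraction was sorted in 2 rounds with a stated purity above 95%, and cDNA came from the SMART-Seq v3 kit.

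IL-35 is a cytokine made mainly by Tregs, a heterodimer of the Ebi3 chain and the p35 chain encoded by Il12a. It binds receptors built from gp130 (Il6st) and IL-12Rβ2 (Il12rb2) and signals through STAT proteins, and in tumours Treg-derived IL-35 is known to be linked to inhibitory receptor expression on T cells. CD8 T cells that see tumour antigen for long gain PD-1 first and TIM-3 later while they lose the memory-associated factor TCF-1 (Tcf7). Interferons act on the same cells through STAT proteins, which bind the interferon-stimulated response element (ISRE) and the gamma-activated site (GAS) in promoters of antiviral, GTPase and antigen presentation genes.

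Library totals were 23.2, 19.7 and 27.6 M counts in Ebi3L replicates 1 to 3 and 27.8, 25.7 and 26.5 M in yfp replicates 1 to 3, within 19.2 to 47.7 M for all CD8 libraries. Ebi3L replicate 1 and yfp replicates 1 and 2 carry batch label 1, and Ebi3L replicates 2 and 3 and yfp replicate 3 carry batch label 3. The first principal component of the 12 INT libraries (21.9% of the variance) put the 3 batch 3 libraries at 83.5 to 86.8 and the other 9 at -54 to 14.5, so genotype was compared with batch in the fit and within each batch. Xist, the X-inactivation RNA, was at 604 CPM (counts scaled to the library's total) in yfp replicate 1, which had 0 reads of the Y-linked Ddx3y, while the other 5 libraries had at most 1.68 CPM of Xist and 112 to 235 CPM of Ddx3y. Cd8a stood at 1090, 1060 and 1210 CPM in Ebi3L libraries and 1190, 1080 and 1400 CPM in yfp libraries, and Cd4 was at most 0.646 CPM. The B cell markers Ms4a1 and Pax5 and the myeloid markers Csf1r, Cd14, S100a8 and S100a9 were at 0 in all 6, while other members of both lists had reads. The summed B cell list was 47.8, 39.2 and 52.1 CPM in Ebi3L and 42.4, 33.2 and 33 CPM in yfp libraries. Of its 5 genes tested, 1 was higher and 0 lower at an unadjusted edgeR p under 0.05 (2.51% of all genes each). The summed myeloid list was 68.5, 175 and 707 CPM in Ebi3L and 94.7, 91.2 and 149 CPM in yfp libraries, and the high value of Ebi3L replicate 3 held MHC class II reads, with H2-Aa at 122 CPM and Cd74 at 270 CPM. The summed CD4 T cell and Treg list was 277, 1040 and 1350 CPM in Ebi3L and 312, 564 and 657 CPM in yfp libraries. Of the 8 genes of this list tested, 6 had an edgeR log2 fold change above 0 (48.5% of all genes), at a median of 0.79. At an unadjusted p under 0.05, 1 of them was higher and 0 lower (2.51% of all genes each). This list holds Ctla4 and Ikzf2, which are also in the lists of inhibitory receptors and exhaustion regulators. Its other genes make up the rest of the sums. Ctla4 was at 98.6, 203 and 192 CPM in Ebi3L and 114, 212 and 113 CPM in yfp libraries. Ikzf2 was at 76, 204 and 187 CPM against 143, 251 and 103 CPM. Foxp3 was at 0.949, 0 and 3.08 CPM in Ebi3L against 0 in all 3 yfp libraries. The part of these markers in the results was not tested. In the yfp mice Pdcd1, which encodes PD-1, was higher in INT than in PD-1-negative cells by 4.49 ± 0.83 (log2 fold change ± SE, edgeR adjusted p = 0.0386), as the sort asks. The TIM-3 gene Havcr2 was also higher, by 8.05 ± 1.28 (adjusted p = 0.0312), though both populations were sorted as TIM-3 negative. Its mean in yfp libraries was 14.6 CPM in INT, 0.0493 CPM in PD-1-negative and 299 CPM in PD-1 high, TIM-3 positive cells.

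Rab4a was the 1 gene that rose in Ebi3L INT cells in edgeR, and 0 fell. Rab4a encodes a small GTPase of early endosomes that returns internalised membrane proteins to the cell surface. It lies on chromosome 8, at 123805846 to 123835291 in GRCm38.p6. Its level was 28.7, 13.7 and 16.5 CPM in Ebi3L libraries, against 4.7, 4.37 and 1.81 CPM in yfp libraries. The lowest Ebi3L value lay above the highest yfp value, and the means were 19.6 ± 7.96 and 3.63 ± 1.58 CPM (SD, n = 3 each). The log2 fold change was 2.80 ± 0.32 (edgeR adjusted p = 0.0128), with 2.62 within batch 1 and 2.99 within batch 3. In such bulk libraries a difference in the share of cells that express a gene and one in the RNA per cell cannot be told apart. Of 12909 genes tested, 1 was called higher (0.00775%) and 0 lower (0%), while 648 had an unadjusted p under 0.05 (5.02%), 324 in each direction (2.51%). DESeq2 on the same libraries called 48 genes higher (0.373%) and 66 lower (0.513%). The call of Rab4a held in 2 of the 6 fits that left out a library, without Ebi3L replicate 2 (adjusted p = 0.0429) and without yfp replicate 2 (0.0161), and was lost without any of the other 4, with adjusted p between 0.0532 without Ebi3L replicate 3 and 0.791 without Ebi3L replicate 1.

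Rab4a was also high in the other knockout arms of the INT population. Its level was 18.5 and 38.1 CPM in the 2 Il10 libraries and 36.5, 31.9, 46.3 and 35.2 CPM in the 4 DKO libraries. Against the same 3 yfp libraries it was called at 2.87 ± 0.36 in Il10 (edgeR adjusted p = 0.0276) and 3.21 ± 0.33 in DKO (adjusted p = 0.00298), the 1 gene called higher in each (0.00775%). Because the 3 comparisons share the yfp libraries, a low Rab4a level in those libraries enters all of them. Il10 replicate 1 and DKO replicate 2 carry batch label 2, which holds no yfp library. Of the Il10 libraries, only replicate 2 shares a batch label with yfp libraries. Across the other CD8 populations the groups separated in some and overlapped in others. PD-1 high, TIM-3 negative cells (SP) had 23.9, 12.2 and 16 CPM in Ebi3L and 0.478, 2.98 and 1.86 CPM in yfp libraries, a log2 fold change of 3.30 ± 0.52 that did not pass (edgeR adjusted p = 0.191). PD-1 high, TIM-3 positive cells (DP) had 32.7, 5.55 and 15.1 CPM in Ebi3L and 3.47, 3.98 and 4.88 CPM in yfp libraries. In both of these populations every Ebi3L library lay above every yfp library. PD-1-negative cells (NEG) had 29.2, 8.57 and 24.8 CPM in Ebi3L against 11.3, 9.11 and 8.82 CPM in yfp libraries, and cells of a non-draining lymph node (NDLN) had 20.3, 9.24 and 2.4 CPM against 13, 2.51 and 6.09 CPM. These last groups overlapped, and the Ebi3L effect on Rab4a in INT minus that in NEG was 1.53 ± 0.60 on the log2 scale (edgeR unadjusted p = 0.0267, adjusted p = 1).

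**Figure D1:**
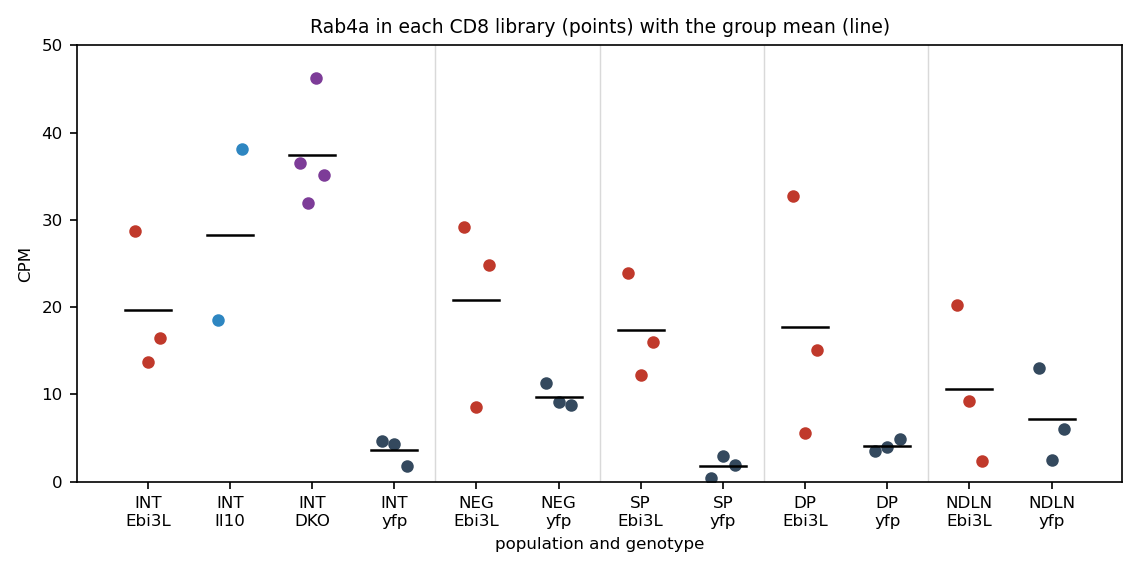
Rab4a in CPM (vertical axis) in each library of the 5 CD8 populations, by genotype. Points are libraries and lines are group means. The 3 INT Ebi3L libraries sit between 13.7 and 28.7 CPM and the 3 INT yfp libraries at 4.7 CPM or lower.

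On the lower side no gene passed in edgeR, and 7 genes among those with the smallest p are each known to be induced by interferons. They were Gm12185, Gm12250, Zbp1, Gm14446, Igtp, Psmb10 and Bst2, and all 7 passed in DESeq2. Their log2 fold changes lay between -2.38 and -0.72 in edgeR, and all 7 were lower in Ebi3L than in yfp libraries within both batches.

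The immunity-related GTPases, interferon-induced enzymes that attack the vacuoles of intracellular pathogens, were among the lowest of these. Gm12185 (RefSeq synonym Irgb2b1) was at 15.1, 5.93 and 3.58 CPM in Ebi3L and 117, 60.1 and 20 CPM in yfp libraries. Its log2 fold change was -2.38 ± 0.41 (edgeR adjusted p = 0.191). Gm12250 (synonym Irgb10) was at 113, 122 and 120 CPM in Ebi3L and 326, 175 and 275 CPM in yfp libraries, at -1.22 ± 0.22. For both genes each Ebi3L library lay below each yfp library. Igtp was at 325, 200 and 228 CPM in Ebi3L and 857, 444 and 467 CPM in yfp libraries, at -1.12 ± 0.22 (adjusted p = 0.259), again with no overlap. The adjusted p of Igtp was 0.0104 without yfp replicate 2 and 0.43 to 1 in the other leave-out, batch, block and 6-library fits, 0.000149 in DESeq2 and 2.77e-08 with no filter on low counts. Igtp lies at 58199556 to 58207592 and Gm12250 at 58183843 to 58190198 on chromosome 11, and the family shares sequence, so reads may be split between its members.

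The other lower genes cover sensing, restriction and antigen processing. Zbp1, a sensor of Z-form nucleic acid, was at 141, 201 and 174 CPM in Ebi3L and 257, 213 and 333 CPM in yfp libraries, at -0.84 ± 0.15 on the log2 scale. Gm14446, which RefSeq lists as Ifit1bl1 of the IFIT family, was at 102, 81 and 90.7 CPM in Ebi3L and 273, 212 and 142 CPM in yfp libraries, at -1.04 ± 0.19. Bst2, which encodes the virus-tethering membrane protein tetherin, was at 149, 193 and 196 CPM in Ebi3L and 301, 204 and 374 CPM in yfp libraries, at -0.91 ± 0.18. In these 3 genes the groups did not overlap. Psmb10, an immunoproteasome subunit, was at 229, 340 and 346 CPM in Ebi3L and 366, 281 and 610 CPM in yfp libraries and overlapped across batches but not within one, at -0.72 ± 0.14. Across all genes, 357 had every Ebi3L library below every yfp library (2.77%) and 378 the reverse (2.93%).

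**Figure D2:**
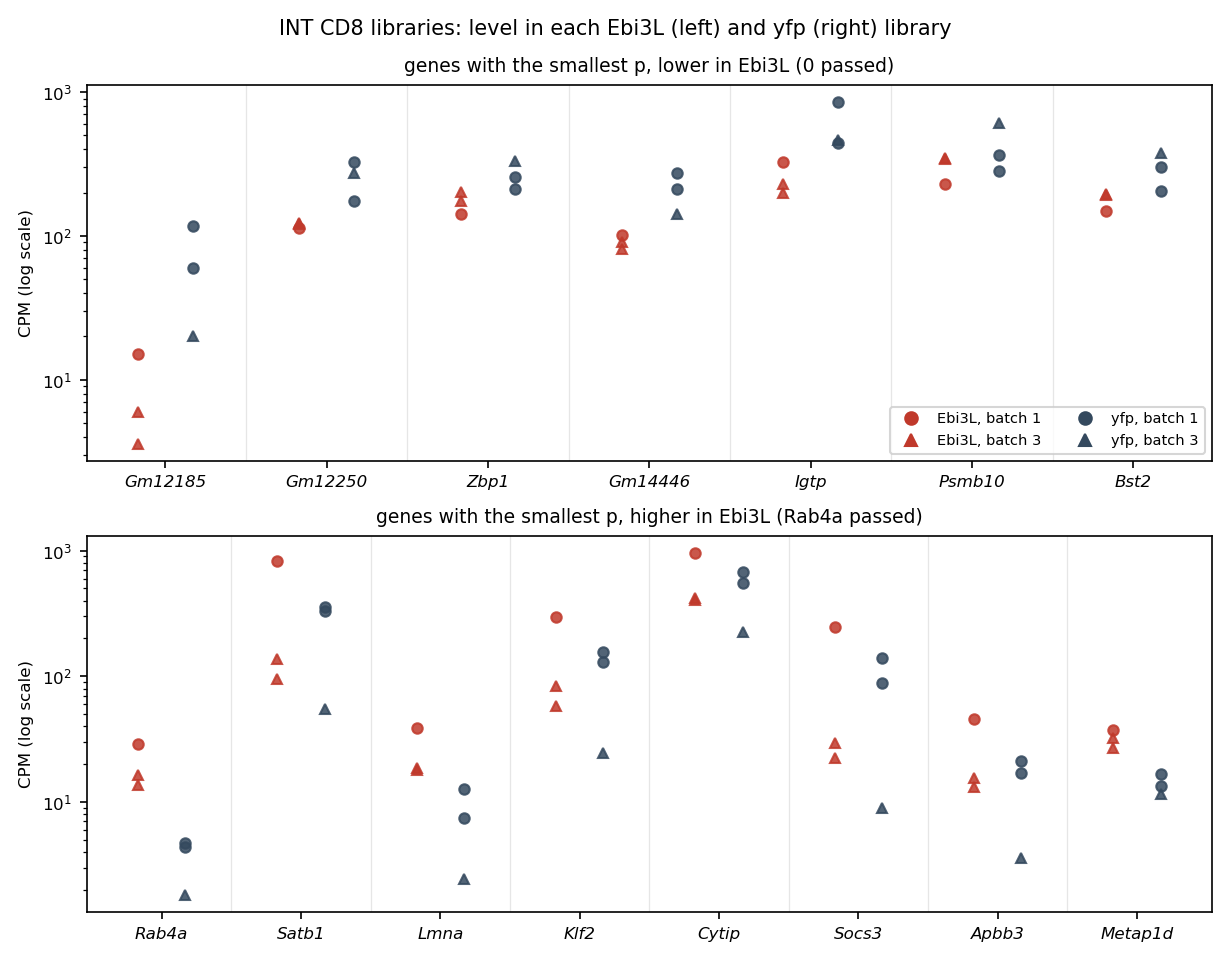
CPM on a log axis for 7 lower and 8 higher genes with the smallest p, with Ebi3L libraries on the left (red) and yfp libraries on the right (dark) of each gene; circles are batch 1 and triangles batch 3. In the lower set 6 of the 7 genes have all Ebi3L points below all yfp points, and Rab4a in the higher set is the gene that passed.

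Promoters of 4 of the lower genes are printed because each holds both interferon elements. They run from 250 bases before to 50 after the start site in RefSeq GRCm38.p6, 5′ to 3′ on the gene's strand, and capitals mark matches to the ISRE letters (GAAA, any 2 bases, GAAA, or on the other strand TTTC, any 2 bases, TTTC) and the GAS letters (TTC, any 3 bases, GAA), which read the same on both strands.
Igtp, chr11:58199306-58199605, plus strand: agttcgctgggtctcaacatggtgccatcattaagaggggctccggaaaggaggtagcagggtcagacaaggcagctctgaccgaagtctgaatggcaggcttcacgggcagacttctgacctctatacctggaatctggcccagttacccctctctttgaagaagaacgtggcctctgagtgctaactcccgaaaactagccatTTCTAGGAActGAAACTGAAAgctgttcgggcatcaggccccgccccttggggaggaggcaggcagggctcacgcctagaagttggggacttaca
Gm12250, chr11:58183593-58183892, plus strand: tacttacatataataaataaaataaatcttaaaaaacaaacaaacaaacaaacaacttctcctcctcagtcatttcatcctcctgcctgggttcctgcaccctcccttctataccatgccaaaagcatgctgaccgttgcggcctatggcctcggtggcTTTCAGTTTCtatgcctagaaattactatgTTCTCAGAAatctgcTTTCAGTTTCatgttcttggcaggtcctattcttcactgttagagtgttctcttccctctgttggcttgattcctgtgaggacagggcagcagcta
Gm12185, chr11:48927133-48927432, minus strand: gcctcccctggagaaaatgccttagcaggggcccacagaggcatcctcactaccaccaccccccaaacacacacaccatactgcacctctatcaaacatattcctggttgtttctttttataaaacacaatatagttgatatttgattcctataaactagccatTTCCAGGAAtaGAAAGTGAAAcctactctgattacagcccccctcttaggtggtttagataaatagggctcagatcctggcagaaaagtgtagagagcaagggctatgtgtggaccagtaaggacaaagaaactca
Bst2, chr8:71537423-71537722, minus strand: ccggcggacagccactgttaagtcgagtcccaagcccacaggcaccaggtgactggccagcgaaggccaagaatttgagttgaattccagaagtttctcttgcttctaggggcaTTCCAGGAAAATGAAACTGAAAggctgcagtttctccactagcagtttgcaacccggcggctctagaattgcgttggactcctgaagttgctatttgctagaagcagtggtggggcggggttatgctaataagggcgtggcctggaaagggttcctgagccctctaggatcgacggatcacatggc
In Igtp the GAS match starts 45 bases and the ISRE match 34 bases before the start site, and in Gm12185 they start 86 and 75 bases before it. In Gm12250 the ISRE letters start 91 and 46 bases and the GAS letters 61 bases before the start. In Bst2 a GAS match at 136 bases overlaps the first of a pair of overlapping ISRE matches at 130 and 124 bases. The ISRE letters stood in 5 of the 6 lower genes with a promoter in the table and in 1 of the 6 higher genes with one. They stood in 10 of 18 promoters of the type I interferon list, in 8 of 18 of the interferon gamma list, in 1 of 19 of the memory list and in 1 of 26 of the proliferation list. Among all genes at an unadjusted p under 0.05 they stood in 15.1% of the lower and 3.52% of the higher ones, beside 3.74% of all tested genes with a promoter and 3.44% of all promoters in the table. The GAS letters stood in 33 of 258 lower genes with a promoter and in 26 of 256 higher ones, beside 8.27% of tested genes and 8.3% of all promoters. They stood in 4 of 18 promoters of the type I interferon list and 7 of 18 of the interferon gamma list. In the memory list, which leaned higher, they stood in 5 of 19, and in the proliferation list in 1 of 26. A match describes the letters and was not tested as a binding site.

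The type I interferon list was lower almost throughout, though 0 of its 25 genes passed in edgeR. Of the 25, 24 had a log2 fold change below 0, where 51.1% of all genes did, and 13 had an unadjusted p under 0.05 on the lower side against 0 on the higher side (2.51% of all genes each). The list median was -0.73 against -0.01 for all genes, with -0.80 within batch 1 and -0.55 within batch 3. In 14 of the 25 genes the Ebi3L libraries lay below the yfp libraries within both batches, a share that was 9.06% over all genes (14% for the reverse). Oas1a, which makes the second messenger that activates RNase L, was at 21.1, 25.4 and 28.4 CPM in Ebi3L and 73.1, 45.8 and 47.5 CPM in yfp libraries, at -1.21 ± 0.31 (edgeR unadjusted p = 0.00199). Stat2, a transcription factor of the type I signal, was at 101, 34.9 and 49.9 CPM in Ebi3L and 235, 129 and 67.2 CPM in yfp libraries, at -0.81 ± 0.24. Both were lower within each batch. Isg15, a ubiquitin-like modifier, was at 50.4, 47 and 69.4 CPM in Ebi3L and 136, 60.6 and 99.2 CPM in yfp libraries, at -0.92 ± 0.36. Ifit3 was at 286, 227 and 249 CPM in Ebi3L and 674, 355 and 331 CPM in yfp libraries, at -0.72 ± 0.29. Irf9, the DNA-binding partner of STAT2, was at -0.08 ± 0.14, and Dhx58, an RNA sensor, at -0.03 ± 0.29. DESeq2 called Bst2, Ifi44 and Oas1a of the list.

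The summed type I list was 3790, 3980 and 4350 CPM in Ebi3L libraries and 7970, 4260 and 5740 CPM in yfp libraries. The highest yfp value belongs to replicate 1, the library with Xist reads, and without it the list median was -0.46. Beyond leaving that library out, its part in the sum was not tested.

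Genes of the interferon gamma response and antigen presentation were lower by less. Of 24 genes tested, 22 had a log2 fold change below 0 (51.1% of all genes), 14 had an unadjusted p under 0.05 on the lower side and 0 on the higher side (2.51% of all genes each), and 15 did not overlap within either batch on the lower side (9.06% of all genes). The median was -0.42, with -0.45 in batch 1, -0.47 in batch 3 and -0.35 without yfp replicate 1. The immunoproteasome subunit Psmb9 was at 199, 412 and 405 CPM in Ebi3L and 338, 278 and 546 CPM in yfp libraries, at -0.58 ± 0.14 (edgeR unadjusted p = 0.00127). Its level was higher in batch 3 in both genotypes, and the difference stood within each batch. Tap1, a transporter of peptides for MHC class I, was at 355, 201 and 205 CPM in Ebi3L and 514, 436 and 274 CPM in yfp libraries, at -0.48 ± 0.14. B2m, the light chain of MHC class I, was at 3220, 6190 and 5890 CPM in Ebi3L and 4300, 4280 and 6970 CPM in yfp libraries, at -0.37 ± 0.10. The MHC class I heavy chains H2-K1 and H2-D1 were at -0.24 ± 0.13 and -0.08 ± 0.11. The guanylate-binding proteins Gbp2, Gbp3, Gbp4, Gbp6 and Gbp7 lay between -0.82 and -0.56 and Gbp5 at -0.35 ± 0.27, while the transcription factor Irf1 was at -0.27 ± 0.16. The list sums were 15000, 17300 and 16800 CPM in Ebi3L and 20200, 18100 and 19800 CPM in yfp libraries, with no overlap. DESeq2 called Igtp, Irgm1, Psmb10 and Psmb9.

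**Figure D3:**
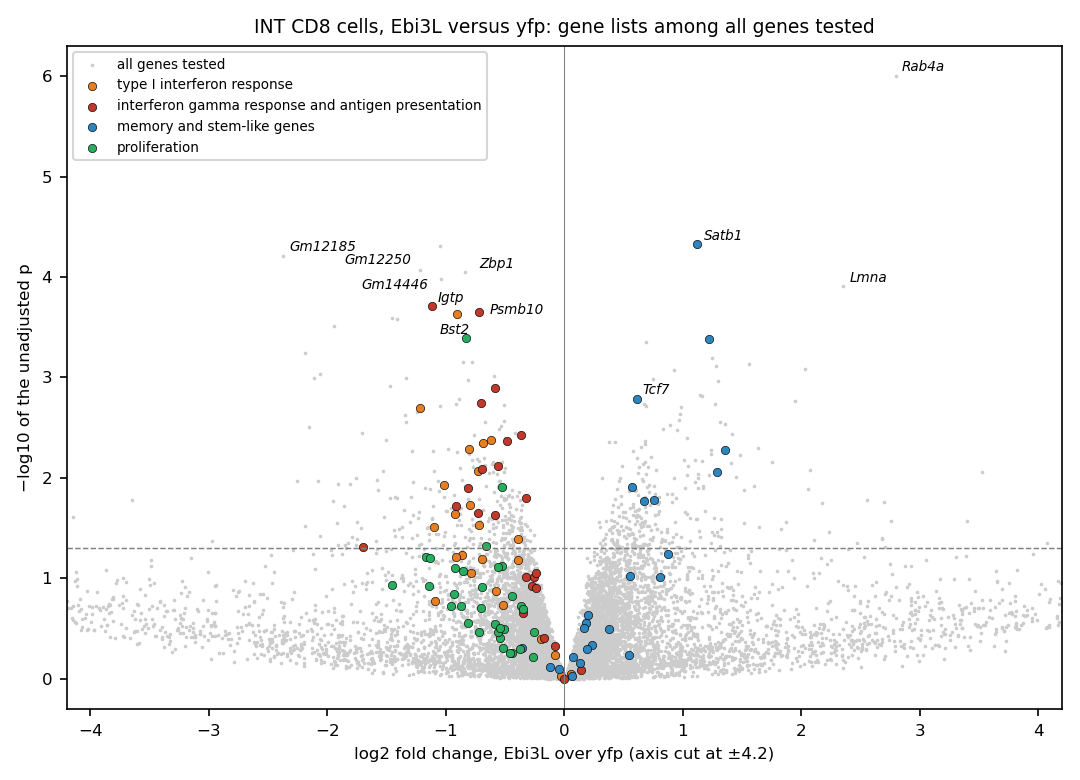
Log2 fold change of Ebi3L over yfp (horizontal axis, cut at ±4.2, which leaves out Ifi44 at -5.35) against −log10 of the unadjusted edgeR p (vertical axis) for 12909 genes; the dashed line is p of 0.05. The type I and gamma interferon genes lie to the left with medians of -0.73 and -0.42 and the memory genes to the right with a median of 0.47.

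Memory and stem-like genes leaned the other way, with 0 of 24 passing in edgeR. The log2 fold change was above 0 in 21 of 24 genes (48.5% of all genes), 8 had an unadjusted p under 0.05 on the higher side and 0 on the lower side (2.51% of all genes each), and in 15 the Ebi3L libraries lay above the yfp libraries within both batches (14% of all genes). The median was 0.47, with 0.52 in batch 1, 0.25 in batch 3 and 0.26 without yfp replicate 1. Satb1, a chromatin organiser of T cell development, was at 834, 138 and 96.1 CPM in Ebi3L and 356, 332 and 55.1 CPM in yfp libraries. It was several times higher in batch 1 than in batch 3, so the pooled values overlap, and its log2 fold change was 1.12 ± 0.19 (edgeR unadjusted p = 4.73e-05, adjusted p = 0.191). Klf2, which drives the egress receptor S1pr1 and CD62L, was at 296, 83.3 and 58.6 CPM in Ebi3L and 131, 156 and 24.7 CPM in yfp libraries, at 1.22 ± 0.26 (adjusted p = 0.32). Tcf7, which encodes TCF-1, was at 628, 226 and 217 CPM in Ebi3L and 331, 434 and 144 CPM in yfp libraries, at 0.61 ± 0.15 (adjusted p = 0.496). All 3 genes were higher within each batch, and DESeq2 called all 3. Ccr7, the lymph node homing receptor, was at 369, 161 and 71.6 CPM in Ebi3L and 170, 146 and 38 CPM in yfp libraries, at 1.36 ± 0.39. S1pr1 was at 0.76 ± 0.28, Lef1, a relative of TCF-1, at 0.57 ± 0.20, and Myb, a transcription factor of stem-like CD8 cells, at 1.29 ± 0.42. Il7r, the IL-7 receptor alpha chain, was at 740, 536 and 477 CPM in Ebi3L and 374, 970 and 169 CPM in yfp libraries, with 0.10 in batch 1 and 1.51 in batch 3. Id3 and Slamf6, 2 further stem-like markers, were at 0.19 ± 0.28 and 0.23 ± 0.30.

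The other genes with the smallest p on the higher side belonged to none of the lists, apart from Socs3, described with the receptors. Lmna, which encodes lamin A and C of the nuclear envelope, was at 38.6, 18.7 and 18 CPM in Ebi3L and 12.7, 7.44 and 2.42 CPM in yfp libraries, without overlap, at 2.36 ± 0.44 (edgeR adjusted p = 0.198). Metap1d, a mitochondrial methionine aminopeptidase, was at 37.6, 27.1 and 32.1 CPM in Ebi3L and 16.8, 13.5 and 11.5 CPM in yfp libraries, also without overlap, at 1.28 ± 0.29 (adjusted p = 0.417). Cytip, a regulator of leukocyte adhesion, was at 956, 422 and 402 CPM in Ebi3L and 555, 674 and 227 CPM in yfp libraries and overlapped only across batches, at 0.69 ± 0.15. Apbb3 was at 1.56 ± 0.35. All passed in DESeq2.

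**Figure D4:**
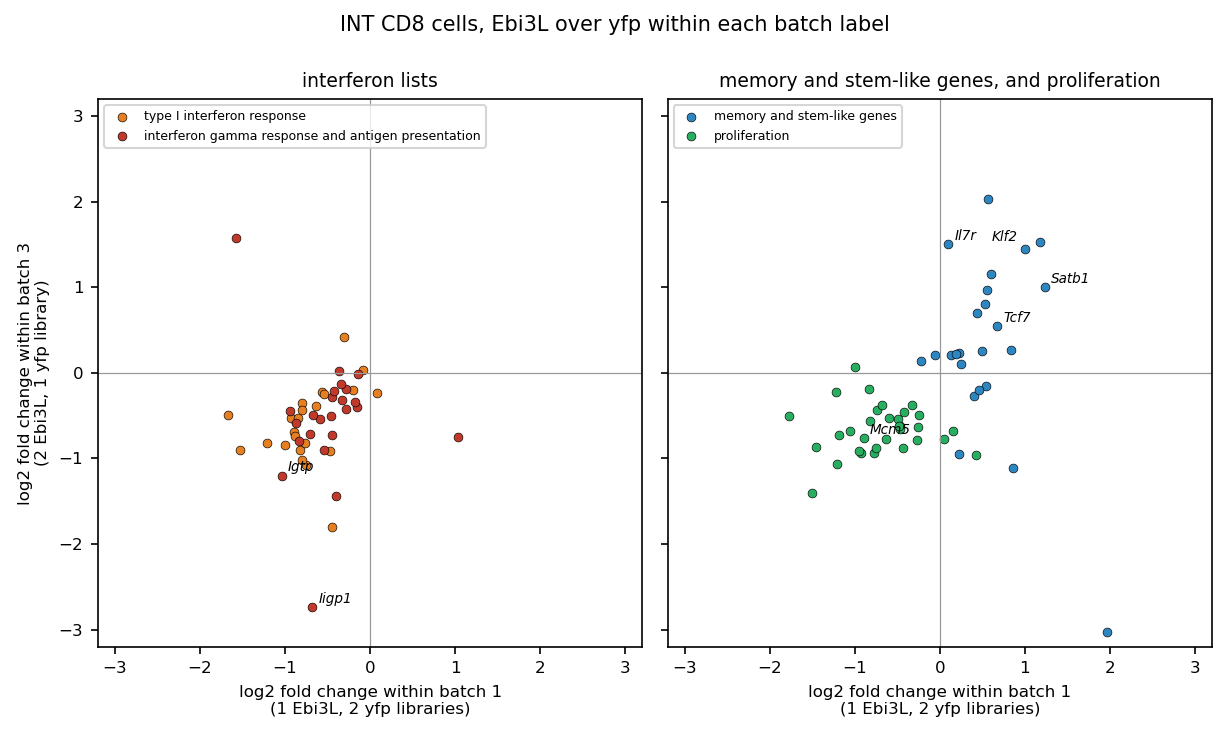
Log2 fold change of Ebi3L over yfp within batch 1 (horizontal axis) against that within batch 3 (vertical axis) for the tested genes of 4 lists; each point is a gene, and Ifi44 lies outside the axes at -8.97 and -4.18. Most interferon and proliferation genes fall at the lower left and most memory genes in the upper right.

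All 32 proliferation genes had a log2 fold change below 0 (51.1% of all genes), and in 6 of them the Ebi3L libraries lay below the yfp libraries within both batches (9.06% of all genes). The median was -0.57, with -0.71 in batch 1 and -0.66 in batch 3, and 3 genes had an unadjusted p under 0.05 on the lower side (2.51% of all genes). Mcm5, a subunit of the replicative helicase, was at 84, 89.2 and 90.3 CPM in Ebi3L and 168, 135 and 145 CPM in yfp libraries, at -0.83 ± 0.18 (edgeR unadjusted p = 0.000403, adjusted p = 0.32). Mki67, which encodes Ki-67, was at 274, 136 and 149 CPM in Ebi3L and 676, 270 and 154 CPM in yfp libraries, at -0.51 ± 0.48. The Mcm5 groups did not overlap and the Mki67 groups did. The list sums were 2780, 2730 and 3110 CPM in Ebi3L and 5840, 2440 and 4290 CPM in yfp libraries, so the lowest sum was a yfp library, and without yfp replicate 1 the median was -0.27.

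Genes of IL-35, IL-27, IL-12 and IL-10 reception and of STAT signalling did not share a direction. Of 22 tested, 13 were above 0 and 9 below (48.5% and 51.1% of all genes), at a median of 0.18. Of these, 4 higher and 2 lower genes had an unadjusted p under 0.05 (2.51% of all genes each). Il6st, the gp130 chain of the IL-35 receptor, was at 153, 42.2 and 28.1 CPM in Ebi3L and 61.2, 90.8 and 18.1 CPM in yfp libraries, at 0.93 ± 0.31 (edgeR unadjusted p = 0.01, adjusted p = 0.834). Il12rb2, the other chain, was at 20, 30.8 and 22.4 CPM in Ebi3L and 79.8, 66.3 and 11.7 CPM in yfp libraries, at -0.41 ± 0.72, with -1.91 in batch 1 and 1.11 in batch 3. The first chain was higher within both batches and the second changed sign between them. Il27ra was at 0.33 ± 0.20, Il6ra at 1.49 ± 0.45 and Il12rb1, the shared IL-12 and IL-23 receptor chain, at -1.29 ± 0.46. Socs3, the feedback inhibitor that acts on gp130, was at 245, 29.4 and 22.3 CPM in Ebi3L and 88.4, 139 and 9.03 CPM in yfp libraries, at 1.25 ± 0.28 (adjusted p = 0.41). Stat3 was at -0.13 ± 0.17 and Stat4 at 0.00 ± 0.12. Il10ra was at 99, 87.8 and 71.8 CPM in Ebi3L and 146, 123 and 112 CPM in yfp libraries, at -0.53 ± 0.26. Of the cytokine chains, Il12a was at 0 in all 3 Ebi3L libraries and at most 0.503 CPM in yfp libraries, near the 0.108 to 0.152 CPM that 3 counts make, and Ebi3 was at 0.0431, 0.152 and 0 CPM in Ebi3L and 1.04, 0 and 16.4 CPM in yfp libraries. DESeq2 called Ebi3 lower (adjusted p = 0.0422) and edgeR did not (0.822), and a single yfp library holds most of its reads. In SP cells Ebi3 was at 1.64, 0.577 and 0 CPM in Ebi3L and 10.9, 19.1 and 22.5 CPM in yfp libraries (edgeR unadjusted p = 0.00294, adjusted p = 0.684). In DP cells it was at 0.146, 0.0337 and 0 CPM in Ebi3L and 2.38, 2.31 and 2.17 CPM in yfp libraries (unadjusted p = 0.00497, adjusted p = 0.747). The groups did not overlap in either population. In NEG and NDLN cells Ebi3 was at 0 in all Ebi3L libraries and in 2 of the 3 yfp libraries of each, with 0.932 CPM in the other yfp library of NEG cells and 1.54 CPM in that of NDLN cells. Which cells in the sorted fractions gave these reads was not tested.

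Among inhibitory receptors and exhaustion regulators 0 genes passed in edgeR. Pdcd1 was at 235, 528 and 716 CPM in Ebi3L and 218, 784 and 446 CPM in yfp libraries, and Havcr2, which encodes TIM-3, at 8.07, 22.9 and 12.3 CPM against 3.81, 9.82 and 30.1 CPM. Tigit was at 27.9, 148 and 85.9 CPM in Ebi3L and 42.9, 135 and 136 CPM in yfp libraries, at -1.002 ± 0.61. The groups of all 3 receptors overlapped. Lag3 was at -0.94 ± 0.80 and Ctla4 at -0.02 ± 0.48. Of 16 inhibitory receptor genes 13 were below 0 (51.1% of all genes), at a median of -0.40 that was -0.75 in batch 1 and 0.09 in batch 3. At an unadjusted edgeR p under 0.05, 1 was lower, Cd160, and 1 higher, Btla (2.51% of all genes each). Within both batches 2 of the 16 lay lower (9.06% of all genes) and 0 higher (14%). Of 18 exhaustion regulators 14 were below 0 (51.1% of all genes), at a median of -0.26 that was -0.36 in batch 1 and -0.09 in batch 3. Within both batches 2 of the 18 lay lower (9.06% of all genes) and 2 higher (14%). Tox, a factor that sustains exhaustion, was at 52, 78.3 and 79.8 CPM in Ebi3L and 57.7, 71 and 123 CPM in yfp libraries, at -0.53 ± 0.20 (edgeR unadjusted p = 0.0199, adjusted p = 0.942). Prdm1, Maf, Id2 and Tbx21 lay between -0.55 and -0.27, with Eomes at 0.23 ± 0.37 and Batf at 0.40 ± 0.20.

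Cytotoxic effector genes were below 0 in 20 of 23 (51.1% of all genes), at a median of -0.32. Only 1 was lower at an unadjusted p under 0.05 and 0 higher (2.51% of all genes each). That gene was Nkg7, a granule membrane protein, at 2280, 6000 and 6140 CPM in Ebi3L and 3220, 3260 and 9090 CPM in yfp libraries and -0.60 ± 0.19 on the log2 scale. Gzmb was at 424, 397 and 525 CPM in Ebi3L and 1040, 421 and 658 CPM in yfp libraries, at -0.71 ± 0.51. Ifng was at 30.2, 294 and 245 CPM in Ebi3L and 120, 75.8 and 223 CPM in yfp libraries, at -0.76 ± 0.44, with -1.74 in batch 1 and 0.20 in batch 3. Ifng changed sign between batches, and Prf1, the perforin gene, was at -0.14 ± 0.33.

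Activation lists lay above 0 mainly in batch 3, which holds 1 yfp library, and metabolic lists lay near 0. Of 26 immediate early genes 23 were above 0 (48.5% of all genes), at a median of 0.33 that was 0.10 in batch 1 and 0.50 in batch 3. Zfp36, an mRNA decay factor, was at 273, 109 and 62.5 CPM in Ebi3L and 133, 125 and 44 CPM in yfp libraries. Of 18 NF-kB and TNF receptor genes 15 were above 0 (48.5% of all genes), at a median of 0.27 that was 0.05 in batch 1 and 0.47 in batch 3. Tnfrsf9, which encodes 4-1BB, was at 89.4, 197 and 245 CPM in Ebi3L and 60.7, 33.1 and 169 CPM in yfp libraries. Oxidative phosphorylation was below 0 in 23 of 28 genes (51.1% of all genes) at a median of -0.16, glycolysis had a median of 0.01 and T cell receptor signalling of 0.03. The 100 genes that were lowest in DP relative to NEG cells of yfp mice had a median of 0.77 over 98 tested, with 0.73 in batch 1 and 0.27 in batch 3. The 100 that were highest had a median of -0.62 over 71 tested, with 0 in batch 1 and -0.36 in batch 3, so neither batch alone gave the pooled value. The first set was above 0 in 70 of its genes (48.5% of all genes) and the second below 0 in 46 (51.1% of all genes). In none of the 30 lists, markers included, did a gene pass in edgeR.

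The same named genes were read in the other CD8 populations of the same genotypes. In NEG, SP, DP and NDLN cells 0 genes passed for Ebi3L against yfp in edgeR, with 199 (1.59%), 295 (2.23%), 306 (2.36%) and 243 (1.97%) genes higher and 302 (2.42%), 323 (2.44%), 416 (3.21%) and 304 (2.46%) lower at an unadjusted p under 0.05. All 7 genes of the lower set had a log2 fold change below 0 in each of these 4 populations. Gm12250 was at -0.87 ± 0.38 in NEG, -1.32 ± 0.34 in SP, -0.94 ± 0.33 in DP and -0.66 ± 0.25 in NDLN. In SP cells its level was 51.9, 46.8 and 44.1 CPM in Ebi3L and 175, 113 and 92.1 CPM in yfp libraries, with no overlap, and in NDLN cells 98.4, 106 and 127 CPM in Ebi3L overlapped with 93.5, 186 and 191 CPM in yfp libraries. The populations share batch labels and library sets, and the labels do not say whether they share mice, so these were not taken as independent repeats. The 10 CD8 libraries with Xist above 100 CPM are the yfp and DKO libraries of Set_8. Each population's yfp group therefore holds a library with Xist reads, and the medians below include it. Across the populations the type I interferon median was -0.62 in NEG, -0.72 in SP, -0.72 in DP and -0.23 in NDLN. The interferon gamma median was -0.44, -0.47, -0.24 and -0.40 in the same order. Type I interferon genes were below 0 in 25 of 25 in NEG (51.9% of all genes), 25 of 25 in SP (51.8%), 23 of 24 in DP (52.9%) and 20 of 25 in NDLN (51.3%). At an unadjusted p under 0.05, 8, 8, 4 and 3 of them were lower and 0 higher in these populations. In the interferon gamma list 8, 13, 4 and 15 of 24 genes were lower (2.42%, 2.44%, 3.21% and 2.46% of all genes) and 0 higher, beside 14 lower in INT. The memory median was 0.18, 0.65, 0.55 and -0.02. The proliferation median was -0.92, -0.54 and -0.51 in the tumour populations and 0.61 in NDLN. In that list 2, 4, 13 and 0 of 32 genes were lower at an unadjusted p under 0.05 in NEG, SP, DP and NDLN, beside 3 in INT. The shares over all genes are those given for the interferon gamma list. The difference of the Ebi3L effect between INT and each other population passed for 0 genes in edgeR, with 433 (3.54%), 452 (3.59%), 425 (3.39%) and 360 (2.95%) at an unadjusted p under 0.05 for NEG, SP, DP and NDLN.

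**Figure D5:**
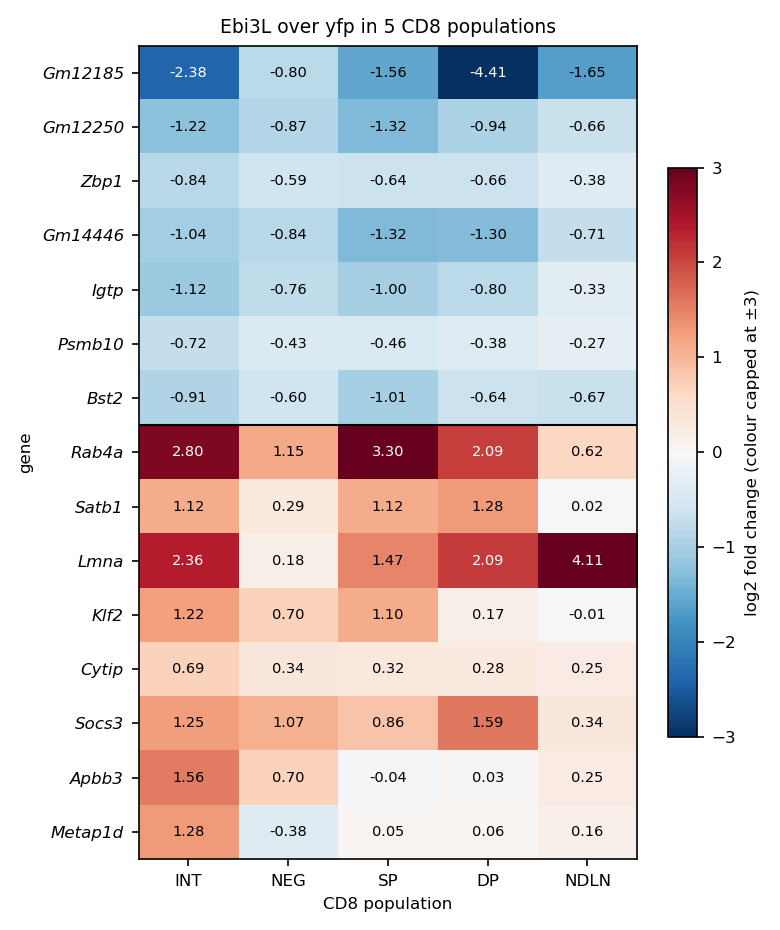
Log2 fold change of Ebi3L over yfp (colour and printed value) for the 7 lower and 8 higher genes (rows) in the 5 CD8 populations (columns). The 7 lower genes are below 0 in every population, with Gm12250 between -1.32 and -0.66. The higher genes vary, Lmna between 0.18 ± 0.47 in NEG and 4.11 ± 1.52 (SE) in NDLN. That NDLN value is set against low Lmna levels, 0.713, 0.892 and 0.068 CPM in the yfp libraries.

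Within the INT population the lower set was also read in the DKO and Il10 arms. Igtp was at 380, 286, 346 and 344 CPM in DKO libraries and 455 and 874 CPM in Il10 libraries, with log2 fold changes against yfp of -0.86 ± 0.21 in DKO and 0.18 ± 0.26 in Il10. Gm14446 was at -1.10 ± 0.17 in DKO (edgeR adjusted p = 0.0958) and 0.04 ± 0.23 in Il10, and Satb1 at 1.16 ± 0.19 in DKO (adjusted p = 0.107) and 0.68 ± 0.22 in Il10. The type I interferon median was -0.66 in DKO and 0.02 in Il10, and that of the interferon gamma list was -0.50 and 0.10. In the type I list 24 of 25 genes were below 0 in DKO (48.1% of all genes) and 12 of 25 in Il10 (53%), with 12 lower at an unadjusted p under 0.05 in DKO (2.68%) and 0 in Il10 (2.18%). The memory median was 0.15 in DKO and -0.12 in Il10, with 6 genes higher at an unadjusted p under 0.05 in DKO (3.01%) and 2 in Il10 (2.26%). The 3 arms share the yfp libraries, only replicate 2 of the Il10 libraries shares a batch label with them, and the differences between arms were not tested.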

How the data were processed

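RNA was sequenced from sorted mouse CD8 T cells. The deposited table holds read counts for 23420 genes; STAR, featureCounts of the Subread package, limma and mm10 are named in the submitters' processing notes. Versions, annotation and strand setting are not given in these sources. Reads of overlapping genes and antisense partners may therefore be mixed. The authors' second file holds deposited filtered log2 values for 10150 genes of the CD8 libraries, used in 1 alternative.

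Counts of the 12 INT libraries (3 Ebi3L, 2 Il10, 4 DKO, 3 yfp) were fitted in edgeR 4.0.16 (R 4.3.3) with TMM, filterByExpr and the robust quasi-likelihood test, genotype plus batch label, 6 residual degrees of freedom and a Benjamini-Hochberg threshold of 0.05 over 12909 genes. The script was tested on simulated data. Differences between populations used the 12 Ebi3L and yfp libraries of both, with the source (1 genotype in 1 library set) as block. DESeq2 1.42.0 and limma 3.58.1 served as alternatives. CPM values were computed from the library totals, with TMM factors left out. Floors of 3 counts cover counting error only, since reads carried no molecular identifiers. No pair of replicates agreed within sampling noise (chi-square of 49.7 to 407 per gene).

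Members, lists, tests and the motif search were chosen with earlier results of these data known. Lists are described by counts and medians, with no test. The rule for named genes took genes past 0.05 without overlap, then those with the smallest p up to 8 a direction, and a fixed panel; 1 gene that met the rule is not reported here. The labels do not tie libraries to animals: each p-value reflects sample-to-sample spread that could be technical. Positions and promoters come from RefSeq GRCm38.p6; 12854 genes matched, 873 by a synonym.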

Additional observations from a re-analysis of the deposited data

How the results depend on the processing

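The count of 1 called gene stayed at 1 with DESeq2 size factors in edgeR. It was 161 (55 higher, 106 lower) with no filter on low counts and 114 (48 higher, 66 lower) in the DESeq2 Wald test. It was 0 in the 6 Ebi3L and yfp libraries alone, without the batch term, within batch 1, within batch 3 and in limma on the deposited log2 values, and 0 without the 2 libraries with Xist (yfp and DKO replicate 1), an alternative chosen after seeing the data. The cause was not tested. Leaving out 1 Ebi3L or yfp library gave 0 to 8 calls, the 8 (1 higher, 7 lower) without yfp replicate 2, among them Igtp, Gm12250, Psmb10 and Bst2. Same-number correlations of deviations were 0.24, -0.12 and 0.24, and Ebi3L replicate 2 correlated best with yfp replicate 3. All pairs within a batch lay at 0.21 to 0.24 and all pairs across batches at -0.39 to -0.12. The correlations followed batch, so they cannot show whether replicate numbers pair the libraries. With the number or the library set as replicate block the count was 0, on 2 and 3 residual degrees of freedom. The differences between populations gave 0 calls under each alternative, except INT minus SP, 0 to 3 in the leave-out fits, with 3 without Ebi3L replicate 1. The 15 genes named for their small p kept their sign in the 17 alternatives. They were chosen by their p in these same libraries, so a kept sign is not an independent check. For the genes named singly, 564 comparisons kept the status of the main fit, nearly all of them with no call in either fit. A call was gained in 38 and lost in 12. Rab4a was the 1 named gene called in the main fit, so the 12 losses are all of its call. In 40 the sign changed with no call on either side (Ctla4, Pdcd1, Ifng and 8 others), and 0 called values reversed. Over the alternatives the list medians ran from -0.95 to -0.46 for type I interferon, -0.51 to -0.35 for interferon gamma, 0.17 to 0.52 for memory, -0.86 to -0.09 for proliferation and -0.75 to 0.09 for inhibitory receptors. The limit that a count of 0 allows, 3 counts, came to between 0.108 and 0.152 CPM over the libraries.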
